A study of Homo sapiens with 42 samples.

Results

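The nuclear genes for the subunits of the mitochondrial respiratory chain and of ATP synthase were followed in K562 cells through 14 groups of RNA-seq libraries. The genes were taken by symbol: the NDUFA, NDUFB, NDUFC, NDUFS and NDUFV genes of complex I and its relatives, SDHA to SDHD of complex II, the UQCR genes of complex III, COX4 to COX8 of complex IV and the ATP5 genes of complex V. Protein-coding genes of these names, without COX6A1, numbered 85 of the 58243 genes in the count tables. They were 36 genes of complex I, 4 of complex II, 9 of complex III, 17 of complex IV and 19 of complex V. NDUFA4, which carries a complex I name, was counted with complex IV, where its protein resides.

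K562 is an established line from chronic myeloid leukemia in blast crisis that carries the BCR-ABL1 fusion kinase, and every library came from this one line. Untreated cells (CTRL) were compared with cells given 1 μM imatinib (IM), which inhibits that kinase, with 5 μM JTE-607 (JTE), which inhibits the nuclease CPSF73 of the mRNA 3′-end cleavage machinery, or with 110 mM KCl, a salt stress. Polyadenylated RNA of whole cells (mRNA) was sequenced in 27 libraries: CTRL, IM for 1, 6 and 18 hours, JTE for 1, 6 and 18 hours, and KCl for 1 and 3 hours. Nuclear RNA depleted of ribosomal RNA was sequenced in 15 libraries: CTRL, IM 1h, IM 18h, JTE 1h and KCl 1h. Each group had 3 replicate libraries.

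Total counts per library were 16439848 to 62953314 in mRNA and 16175394 to 25103205 in nuclear RNA, and replicates 2 and 3 of mRNA KCl 1h were the deepest. The libraries are numbered as labelled, but the totals of mRNA CTRL replicates 1 and 2 stand in the reverse order in the published list of read numbers, so fits with the replicate number as a block were also made with these 2 numbers exchanged. The 7 erythroid markers of K562 cells examined (GATA1, TAL1, KLF1, HBE1, HBG1, HBG2 and HBZ) were all present. Of 5 markers of other cell types, MS4A1 had no count in CTRL and CD3E and ALB were near 0, whereas CD3D and EPCAM had mean levels of 2.69 ± 0.569 and 91.1 ± 4.14 CPM (SD, n = 3) in mRNA CTRL. CPM is the normalised read count per library size, scaled by the trimmed mean of M-values. In bulk RNA, fewer cells of a type and less RNA per cell cannot be told apart.

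Complex I oxidizes NADH and complex II oxidizes succinate, complex III passes the electrons from ubiquinol to cytochrome c, and complex IV passes them to oxygen. Complexes I, III and IV pump protons, and complex V uses the returning protons to make ATP. Most subunits are encoded in the nucleus and imported into the mitochondrion, while a small set, including catalytic cores of complexes I, III and IV, is encoded by mitochondrial DNA. Promoters of many of these nuclear genes are known targets of NRF1, of ETS-family factors such as GABPA, and of YY1. Developing erythroid cells need mitochondria for heme synthesis and lose them as they mature.

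The promoters of 5 genes are printed here. SDHB, UQCRFS1, ATP5MC1 and ATP5IF1 are the members that were called at 18 hours of imatinib in both fractions, and SDHD, another subunit of complex II, was called in nuclear RNA alone. Each sequence is the RefSeq window on the gene's own strand, from 250 bases before to 50 bases after the start of the gene (GRCh38.p14). Capitals mark any of 6 motifs searched on both strands. The first was GCATGCG, which is the core of the motif of the regulator NRF1. The second was CCGGAAG, which is bound by members of the ETS family of transcription factors. The third was ATGGCGG, which is the core of the motif of the regulator YY1. The fourth was the E-box CACGTG, which is bound by the proteins MYC and MAX. The fifth was TATAAA, which is a core element of some promoters and is here called the TATA box. The sixth was AGATAA, which is bound by factors of the erythroid lineage such as GATA1 and is here called the GATA motif. SDHB lies at chr1:17053983-17054282 on the minus strand, SDHD at chr11:112086623-112086922 on the plus strand, ATP5MC1 at chr17:48892537-48892836 on the plus strand, UQCRFS1 at chr19:29213102-29213401 on the minus strand and ATP5IF1 at chr1:28235874-28236173 on the plus strand.
SDHB: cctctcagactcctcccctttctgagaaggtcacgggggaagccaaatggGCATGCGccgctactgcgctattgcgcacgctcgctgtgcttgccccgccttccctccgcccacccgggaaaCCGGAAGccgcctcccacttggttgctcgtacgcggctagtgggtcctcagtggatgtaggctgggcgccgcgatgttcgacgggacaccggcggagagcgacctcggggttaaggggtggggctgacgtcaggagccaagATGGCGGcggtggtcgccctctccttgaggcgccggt
SDHD: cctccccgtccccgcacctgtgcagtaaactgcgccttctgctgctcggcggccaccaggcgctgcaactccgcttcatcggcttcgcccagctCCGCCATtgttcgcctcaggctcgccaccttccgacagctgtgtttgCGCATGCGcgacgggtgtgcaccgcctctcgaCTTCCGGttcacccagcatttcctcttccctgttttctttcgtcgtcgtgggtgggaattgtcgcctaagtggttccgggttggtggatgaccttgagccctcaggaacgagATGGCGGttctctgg
ATP5MC1: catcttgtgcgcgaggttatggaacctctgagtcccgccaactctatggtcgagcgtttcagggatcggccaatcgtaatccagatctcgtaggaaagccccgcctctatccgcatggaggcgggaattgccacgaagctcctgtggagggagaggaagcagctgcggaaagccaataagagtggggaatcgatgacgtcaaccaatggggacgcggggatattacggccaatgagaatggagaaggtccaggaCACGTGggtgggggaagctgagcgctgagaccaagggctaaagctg
UQCRFS1: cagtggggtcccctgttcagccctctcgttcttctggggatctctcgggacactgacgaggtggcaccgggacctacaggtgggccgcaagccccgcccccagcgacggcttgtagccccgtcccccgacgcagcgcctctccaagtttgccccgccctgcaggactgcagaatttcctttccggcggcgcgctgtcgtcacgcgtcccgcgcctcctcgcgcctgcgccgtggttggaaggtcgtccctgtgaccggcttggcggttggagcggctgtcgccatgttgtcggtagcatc
ATP5IF1: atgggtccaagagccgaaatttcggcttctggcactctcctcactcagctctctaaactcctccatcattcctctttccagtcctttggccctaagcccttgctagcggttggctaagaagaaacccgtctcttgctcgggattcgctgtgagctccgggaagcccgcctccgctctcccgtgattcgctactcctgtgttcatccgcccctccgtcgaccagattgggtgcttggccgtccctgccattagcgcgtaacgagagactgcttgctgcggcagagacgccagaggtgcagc
The windows of SDHB and SDHD each held the NRF1 core, the ETS motif and the YY1 core, the window of ATP5MC1 held an E-box, and none of the 6 motifs was found in those of UQCRFS1 and ATP5IF1. A match of letters is a description and not a binding site.

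A promoter window was found for 68 of the 85 genes and was set beside those of 15724 coding genes. Only the first listed window of each gene was used, and other starts were not searched. The window of NDUFA5, which held the GATA motif, lay outside the annotated gene (chr7:123601602-123601901 against chr7:123536997-123557904). The NRF1 core was in 12 of the 68 (17.6%, against 5.09% of all promoters), the ETS motif in 19 (27.9%, against 14.2%) and the YY1 core in 18 (26.5%, against 7.65%). The E-box was in 7 (10.3%, against 8.85%), the TATA box in 7 (10.3%, against 9.67%) and the GATA motif in 5 (7.35%, against 7.60%).

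In untreated cells the respiratory genes took 1.01% ± 0.0256 (SD, n = 3) of the mRNA counts and 1.08% ± 0.0470 of the nuclear counts. Complex V made the largest contribution to the mRNA share with 0.419% ± 0.0155, followed by complex I with 0.247% ± 0.00549, complex IV with 0.165% ± 0.00134, complex III with 0.124% ± 0.00207 and complex II with 0.0575% ± 0.00297. These shares did not overlap between complexes in any CTRL library. Genes were ranked within a complex by CPM per kilobase of exon, since longer genes collect more reads.

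The highest gene in mRNA CTRL was ATP5F1B, the catalytic beta subunit of ATP synthase, at 578 ± 21.2 CPM per kb. NDUFS5, an accessory subunit facing the intermembrane space, led complex I at 317 ± 25.2 CPM per kb. UQCRH, the hinge protein beside cytochrome c1, led complex III at 283 ± 3.93, COX6B1, another subunit on the intermembrane side, led complex IV at 179 ± 9.51, and SDHB, the iron-sulfur subunit, led complex II at 69.9 ± 4.50 CPM per kb. The lowest were NDUFA13 of complex I (0.329 ± 0.0897), SDHC of complex II, a membrane anchor (7.17 ± 0.249), UQCR11 of complex III (11.2 ± 1.25), COX4I2 of complex IV (no count) and ATP5MGL of complex V (0.452 ± 0.0918).

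The subunits of 1 complex stood at very different RNA levels per kilobase, although most occur once per complex (the plot of levels in CTRL cells). The exon length used counts all annotated exons of a gene, 548 bases for NDUFS5 and 14160 bases for SDHC. How far it exceeds the length of the RNA present was not tested. A level over 10 CPM per kb was reached by 24 of 36 genes of complex I, 3 of 4 of complex II, all 9 of complex III, 11 of 17 of complex IV and 18 of 19 of complex V. NDUFA13, NDUFA7, NDUFA9, NDUFA11, NDUFV2, NDUFS7 and NDUFB8 were the lowest of complex I. The count tables left out reads that fell on more than 1 gene, and 44 of the 85 genes share exon bases with another gene. NDUFA13 shares 20.97% of its exon bases with YJEFN3 and another gene, NDUFA7 33.5% with RPS28 and another gene, and NDUFV2 28.4% with another gene. The part of this overlap in their low levels was not tested.

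**Figure D1:**
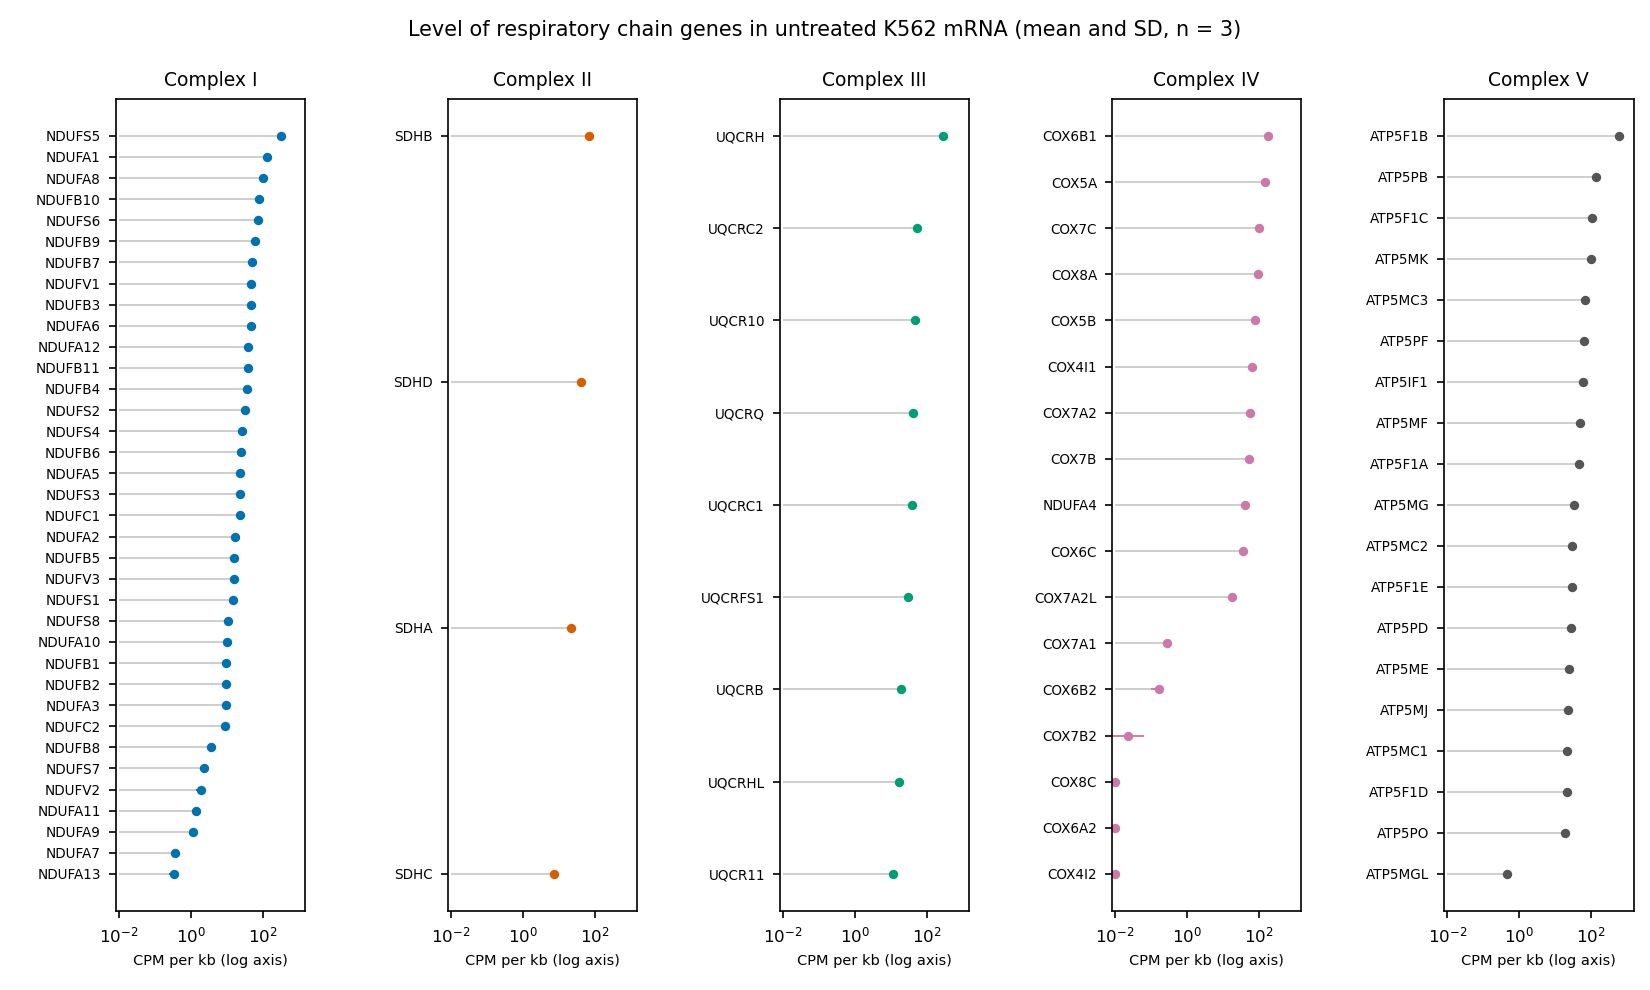
Mean level of each of the 85 genes in the 3 untreated mRNA libraries (CPM per kilobase of exon, log axis; bars, SD, cut at the left where they reach it), by complex. Genes with no count (COX4I2, COX6A2 and COX8C) are drawn at the left edge, and ATP5F1B is the highest at 578 ± 21.2 CPM per kb.

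The tissue-restricted isoforms of complex IV were at or near 0 in these cells. COX4I2 (the lung and hypoxia form of COX4), COX6A2 (heart and muscle) and COX8C (testis) had no count in the CTRL libraries of mRNA, where 3 counts over the group would have been 0.0544 CPM. COX6B2, the testis form of COX6B, was at 0.716, 0.786 and 0.334 CPM in the 3 CTRL libraries, COX7A1, the muscle form of COX7A, at 0.331, 0.210 and 0.279 CPM, and COX7B2 at 0.0551, 0 and 0 CPM. Per kilobase, COX6B2 had a level of 0.160 ± 0.0637 CPM against 179 ± 9.51 for its ubiquitous counterpart COX6B1, and COX7A1 a level of 0.271 ± 0.0604 against 55.4 ± 2.76 for COX7A2. A filter on low counts kept 79 of the 85 genes for testing in mRNA, without COX4I2, COX6A2, COX7A1, COX7B2, COX8C and ATP5MGL, and 81 in nuclear RNA, where COX7A1 and ATP5MGL also passed.

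Across the 9 mRNA groups the respiratory genes had narrower ranges than all genes over the same floor of 10 CPM. The sets were not matched for level above that floor. Among 73 members with a mean over 10 CPM, the highest group exceeded the lowest by a median of 1.39 times, and 55 of them stayed within 1.5 times. Over all 8817 genes above that floor the median was 1.60 times and 39.6% stayed within 1.5 times. In the 5 nuclear groups the median was 1.26 times for 76 members and 1.43 times for 9308 genes, with 61 members and 56.9% of genes within 1.5 times. These spreads are a description without a test. The widest span in mRNA was that of NDUFA9, 2.86 times.

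Genes were called changed when the adjusted p of edgeR's quasi-likelihood test, over all genes tested, was under 0.05 and the log2 fold change was beyond 0.6. All comparisons with CTRL within a fraction share its 3 CTRL libraries. The CTRL labels give no time, so effects of a treatment and of hours in culture cannot be told apart. No member was called after 1 hour of imatinib in mRNA, where 0.0166% of 18095 genes were called, nor in nuclear RNA, where 0.0456% of 21929 genes were called. At an unadjusted p under 0.05 the members numbered 0 in mRNA and 2 in nuclear RNA at that time, and DESeq2 called 0 in both. At 6 hours in mRNA edgeR and DESeq2 each called 0 of 79, against 9.94% of all genes by edgeR, and 5 had an unadjusted p under 0.05. Of these, 3 passed the adjusted p alone with smaller changes. These were UQCRB, a ubiquinone-binding subunit of complex III (0.31), NDUFB5, an accessory subunit of complex I (0.34), and ATP5IF1 (0.43), all higher on the log2 scale. With the replicate block and CTRL replicates 1 and 2 exchanged COX6B2 was called higher (1.14, adjusted p = 0.0349).

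At 18 hours of imatinib 4 of 79 members were called in mRNA, 1 higher and 3 lower, against 17.2% of all genes higher and 13.2% lower. The called share of the members was thus below that of all genes in both directions. Without IM 18h replicate 2, 7 members were called, and with no filter on low counts 8. By the adjusted p alone 28 members passed, 6 higher and 22 lower, against 43.8% of all genes. The log2 fold changes of the 79 had a median of -0.14, with 58 negative and 21 positive, while the median was 0.04 over all genes and -0.09 over genes above 10 CPM. All 3 IM 18h libraries lay below all 3 CTRL libraries for 35 of the 73 members over 10 CPM, beside 38.9% of all genes over 10 CPM. The share of counts of all 85 genes was 0.947% ± 0.0335 at IM 18h, against 1.01% ± 0.0256 in CTRL (SD, n = 3).

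The inhibitor of ATP synthase rose. ATP5IF1 restrains the reverse, ATP-consuming reaction of complex V and is known to be needed for heme synthesis in erythroid cells. The gene lies at chr1:28236109-28246906 in GENCODE 44 (GRCh38). Its mRNA was at 142, 145 and 119 CPM in CTRL, 187, 183 and 174 CPM at IM 6h and 239.6, 224 and 244 CPM at IM 18h. The 3 groups did not overlap and stood in the order of time. The change at 18 hours was called (log2 fold change 0.80, SE 0.13, adjusted p = 2.67e-05), and in every alternative fit it was called again. In nuclear RNA the levels were 183, 185 and 178 CPM in CTRL and 308, 294 and 296 CPM at IM 18h, again without overlap (log2 fold change 0.72, SE 0.08, adjusted p = 9.61e-07).

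In complex II the subunit SDHB fell at IM 18h and its catalytic partner SDHA did not. SDHB (chr1:17018664-17054032), the iron-sulfur subunit that hands electrons on to ubiquinone, fell from 184, 170.0 and 162 CPM to 95.9, 111 and 112 CPM in mRNA (log2 fold change -0.69, SE 0.10, adjusted p = 1.13e-05). In nuclear RNA it fell from 158, 173 and 161 CPM to 88.1, 114 and 103 CPM (log2 fold change -0.69, SE 0.10, adjusted p = 8.16e-06). All IM 18h libraries lay below all CTRL libraries in both fractions. Without nuclear CTRL replicate 2 the nuclear change came to -0.60, just short of the fold threshold (adjusted p = 2.22e-04).

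SDHA, the flavoprotein that oxidizes succinate, was at 191, 203 and 161 CPM in CTRL mRNA and 258, 221 and 228 CPM at IM 18h. It passed the adjusted p with a log2 fold change of 0.35 that did not reach the fold threshold (adjusted p = 0.00656). SDHD, a membrane anchor, had log2 fold changes of -0.47 in mRNA (adjusted p = 0.00697) and -0.64 in nuclear RNA (adjusted p = 0.00388), the latter called. Without nuclear CTRL replicate 1 or 3 the nuclear value was -0.49 or -0.60 and no longer called. SDHD shares 19.1% of its exon bases with TIMM8B and another gene, and TIMM8B, an import chaperone of the intermembrane space, had a nuclear log2 fold change of -0.94; its part was not tested. SDHC, the other anchor, was at 0.12 in mRNA (adjusted p = 0.317).

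In complex III the Rieske iron-sulfur protein UQCRFS1 (chr19:29205320-29213151) fell. It was at 114, 107 and 95.3 CPM in CTRL and 63.5, 64.9 and 66.9 CPM at IM 18h in mRNA (log2 fold change -0.70, SE 0.14, adjusted p = 3.50e-04). In nuclear RNA it was at 108, 115 and 112 CPM and 62.3, 72.9 and 72.4 CPM (log2 fold change -0.69, SE 0.10, adjusted p = 8.05e-06). The groups did not overlap in either fraction. UQCRC1, a core subunit on the matrix side, did not pass the test (-0.06, adjusted p = 0.657), and UQCRB was higher by the adjusted p alone (0.39, adjusted p = 0.00101). UQCR11, the smallest subunit of the complex, was called lower in nuclear RNA, from 39.8, 47.8 and 45.7 CPM to 20.7, 29.8 and 29.0 CPM (log2 fold change -0.75, SE 0.13, adjusted p = 1.19e-04). Without nuclear IM 18h replicate 1 it was at -0.59, short of the fold threshold.

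The 3 genes for subunit c of complex V, which forms the proton-driven rotor ring, did not change alike. ATP5MC1, ATP5MC2 and ATP5MC3 encode the same mature protein behind different import signals. ATP5MC1 (chr17:48892765-48895871) went from 54.4, 61.8 and 49.0 CPM to 32.3, 35.3 and 41.0 CPM in mRNA (log2 fold change -0.61, SE 0.15, adjusted p = 0.00198). In nuclear RNA it went from 80.4, 92.2 and 96.5 CPM to 37.0, 50.1 and 52.6 CPM (log2 fold change -0.95, SE 0.12, adjusted p = 2.69e-06). The libraries of both groups were apart in both fractions. The mRNA call was narrow: it was lost without CTRL replicate 2 (-0.54), without IM 18h replicate 1 (-0.53) and with a replicate block, by the labelled or the exchanged CTRL numbers (-0.59 in both), each time because the fold change came under the threshold.

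ATP5MC3, which had the highest level of the 3 per kilobase (65.4 ± 3.93 CPM in CTRL), was lower by the adjusted p alone (-0.39, adjusted p = 0.00734), and ATP5MC2 did not pass (0.17, adjusted p = 0.185). Of the summed CPM of the 3 genes in mRNA, not corrected for length, ATP5MC2 made up 18.7, 18.5 and 20.9% in the CTRL libraries and 26.5, 27.2 and 25.7% in the IM 18h libraries. ATP5MC1 made up 8.38, 10.1 and 8.24% in CTRL and 6.73, 7.28 and 7.32% at IM 18h. The shares of both genes did not overlap between the groups. At JTE 18h ATP5MC1 made up 6.47, 6.88 and 7.09%, also below all CTRL libraries. ATP5MC2 made up 16.3, 16.4 and 16.4% at JTE 18h, below CTRL, where imatinib had it above. The sum itself was 618 ± 27.8 CPM in CTRL and 508 ± 44.7 CPM at IM 18h (SD, n = 3). Of the F1 subunits, ATP5F1B was lower by the adjusted p alone, from 1342 ± 49.3 to 997 ± 37.6 CPM (log2 fold change -0.43, SE 0.08, adjusted p = 1.01e-04), and its partner ATP5F1A, the alpha subunit, was at 0.02 (adjusted p = 0.858).

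In complex IV none of the 12 genes tested in mRNA or the 13 in nuclear RNA was called at IM 18h. COX4I1, which starts assembly of the complex with COX5A, was at 301 ± 8.80 CPM in CTRL and 309 ± 6.74 CPM at IM 18h (adjusted p = 0.726). COX5A was lower by the adjusted p alone (log2 fold change -0.36, SE 0.09, adjusted p = 0.00189). NDUFA4 was at -0.02 (adjusted p = 0.88). COX7A2L, a factor of supercomplex assembly, had a log2 fold change of 0.33 in mRNA (adjusted p = 0.0565) and 0.26 in nuclear RNA (adjusted p = 0.0291).

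Complex I had 0 of 36 genes called in mRNA and 4 lower in nuclear RNA at IM 18h. NDUFC2 (chr11:78068297-78079862), an accessory subunit of the membrane arm, fell in nuclear RNA from 24.2, 21.2 and 26.7 CPM to 9.72, 11.4 and 12.7 CPM (log2 fold change -1.10, SE 0.15, adjusted p = 5.46e-06), without overlap of the groups. In mRNA its change was -0.58 (adjusted p = 1.71e-04), close under the threshold, and with no filter on low counts NDUFC2 (-0.66) and the core subunit NDUFS7 (-0.60) were called lower there. The others called in nuclear RNA were the accessory subunits NDUFA7 (-0.72), NDUFA10 (-0.67) and NDUFB2 (-0.67). NDUFC2 shares 18.1% of its exon bases with NDUFC2-KCTD14 and THRSP, and NDUFB2 35.9% with ADCK2, BRAF and NDUFB2-AS1. The part of these overlaps was not tested. NDUFA7 went the other way in mRNA without passing the test (0.66, adjusted p = 0.164). Without nuclear CTRL replicate 2 or nuclear IM 18h replicate 1, both NDUFA7 (-0.65 and -0.56) and NDUFB2 (-0.55 and -0.57) were no longer called, and NDUFA7 was not called without nuclear CTRL replicate 3 (-0.52).

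Of the core subunits of complex I, NDUFS1, the large iron-sulfur subunit, and NDUFV1, which binds NADH, were lower by the adjusted p alone in mRNA. NDUFS1 was at 179 ± 5.14 CPM in CTRL and 151 ± 9.25 CPM at IM 18h (log2 fold change -0.24, SE 0.07, adjusted p = 0.00858). NDUFV1 was at 192 ± 9.54 CPM and 154 ± 3.96 CPM (log2 fold change -0.32, SE 0.09, adjusted p = 0.0076). Neither change reached the fold threshold.

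In nuclear RNA as a whole, 11 of 81 members were called at IM 18h, 1 higher and 10 lower, against 17.2% of all genes higher and 15.4% lower. ATP5MK, a small subunit of complex V, completed the 10 at -0.61, and 8 alternative fits put it under the fold threshold, among them those without any 1 of the nuclear CTRL replicates 1, 2 and 3 (-0.59, -0.55 and -0.54) or nuclear IM 18h replicate 1 (-0.56). By the adjusted p alone 33 passed, 6 higher and 27 lower, against 45.6% of all genes. The median log2 fold change was -0.21 over the members, 0.00 over all genes and -0.13 over genes above 10 CPM. Without nuclear CTRL replicate 2, or without nuclear IM 18h replicate 1, 7 members were called.

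**Figure D2:**
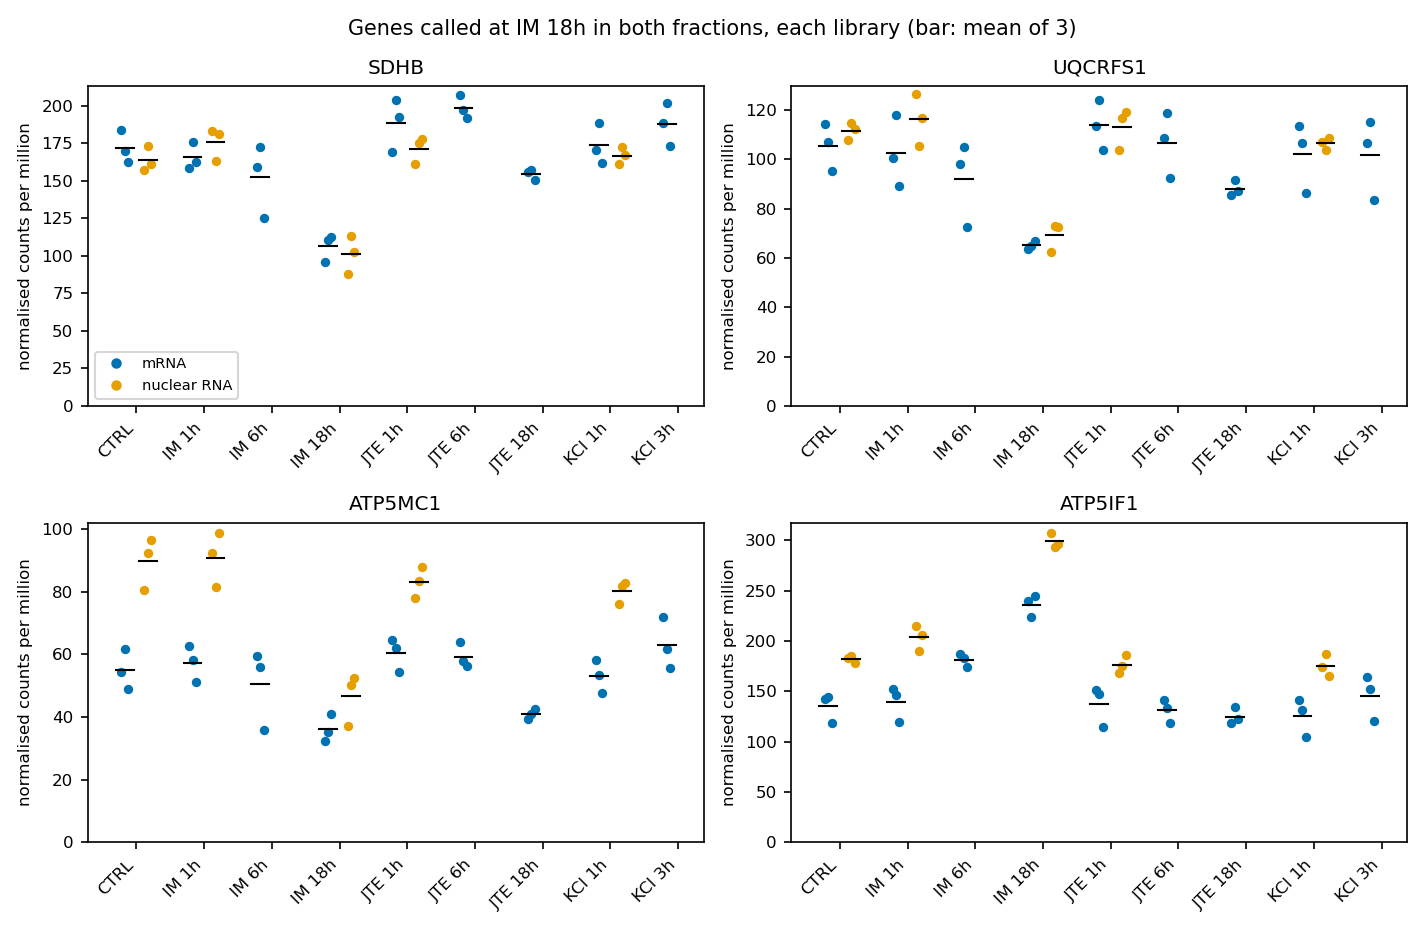
Level of SDHB, UQCRFS1, ATP5MC1 and ATP5IF1 in every mRNA (blue) and nuclear (orange) library, by group (CPM, linear axis from 0). Points are libraries and bars are means of 3, and the IM 18h libraries of SDHB, UQCRFS1 and ATP5MC1 lie below and those of ATP5IF1 above the CTRL libraries of the same fraction.

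Most genes changed in the same direction in both fractions at IM 18h. Of 79 genes tested in both, 73 had the same sign, 57 negative and 16 positive, and Pearson's r across these genes was 0.78 (Spearman's rho 0.83). Genes are not independent replicates, and this correlation is a description. All 4 members called in mRNA were also called in nuclear RNA, where they were 36.4% of the 11. A fit to the 12 libraries of both fractions tested the difference between the responses itself, and edgeR called 0 members in it, against 0.0901% of all genes. DESeq2 also called 0, and 2 had an unadjusted p under 0.05. The plot of the nuclear against the mRNA change shows the points near the diagonal with SDHB, UQCRFS1, ATP5MC1 and NDUFC2 at the lower left and ATP5IF1 at the upper right.

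**Figure D3:**
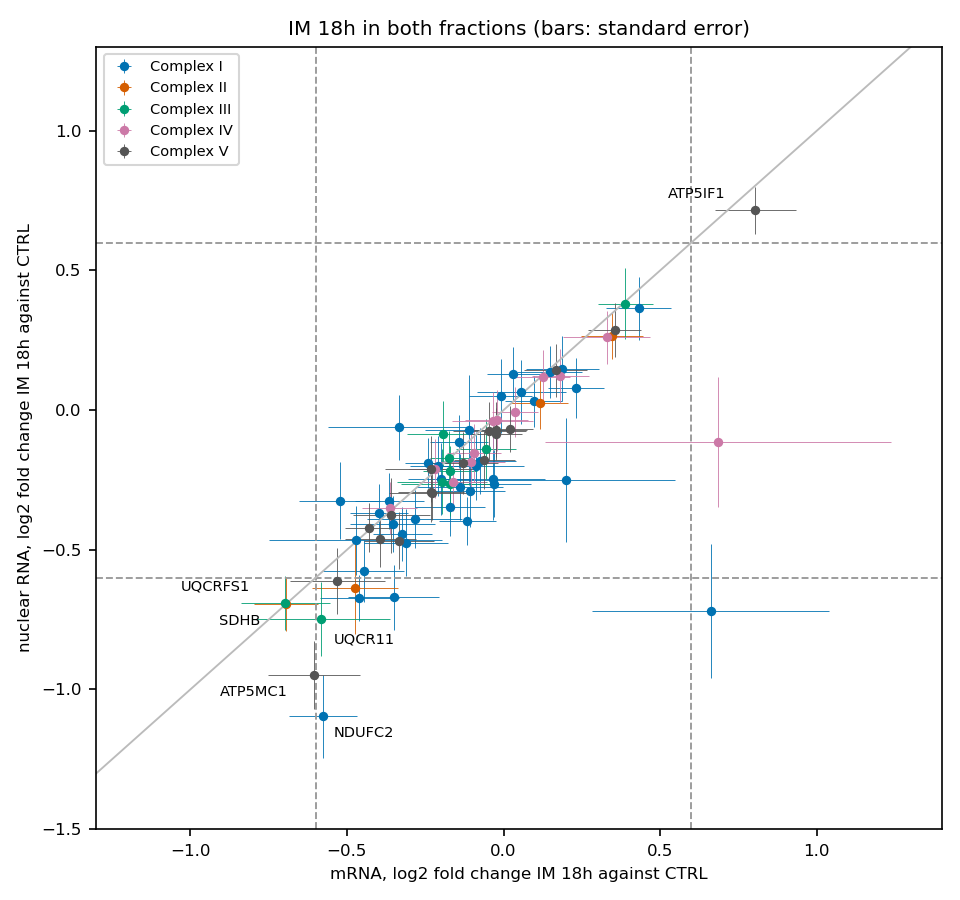
Log2 fold change of each gene at IM 18h against CTRL in mRNA (horizontal) and nuclear RNA (vertical), coloured by complex, with bars for the standard error. Dashed lines mark the fold threshold of 0.6 in each direction and the diagonal marks equal changes, and 73 of 79 genes have the same sign in both.

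Of the 10 genes called lower in nuclear RNA at IM 18h, 9 had a promoter window. The ETS motif was in 4 of them, the YY1 core and the E-box in 3 each, the NRF1 core in 2, the TATA box in 1 and the GATA motif in 0. With so few genes these counts are given as a description.

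Erythroid markers moved with the same comparison. Of the 7, 6 were called higher at IM 18h in mRNA and 6 in nuclear RNA, against 17.2% of all genes in each, with the exception of GATA1 (-0.20 in mRNA, adjusted p = 0.299). Their summed level was 2496 to 4322 CPM in the CTRL libraries and 9336 to 13341 CPM in the IM 18h libraries of mRNA, and 3626 to 5499.6 CPM and 10988 to 13126 CPM in nuclear RNA. Of the markers of other cell types, CD3D fell in mRNA (-4.01, adjusted p = 5.77e-07), while MS4A1 had no count in either mRNA group and the summed level of all 5 was 90.2 to 97.7 CPM in CTRL and 82.6 to 88.8 CPM at IM 18h. The part of either list in the changes of the respiratory genes was not tested.

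Other genes of the respiratory pathway were also called at IM 18h. Of 5 genes for cytochrome c, cytochrome c1 and other proteins outside the symbol rule, 3 were called lower in mRNA, against 13.2% of all genes. CYCS, which encodes the electron carrier cytochrome c, fell from 676, 567 and 611 CPM to 199, 265 and 234 CPM (log2 fold change -1.41, SE 0.17, adjusted p = 6.07e-07). In nuclear RNA CYCS was at 323, 253 and 249 CPM in CTRL and 97.6, 111 and 85.7 CPM at IM 18h (log2 fold change -1.48, SE 0.16, adjusted p = 5.13e-07). HIGD1A, a small protein of the inner membrane (-0.74), and NDUFAB1, the mitochondrial acyl carrier protein that is also a complex I subunit (-0.74), were the other 2.

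Of 48 assembly factors tested in mRNA, 13 were called lower and 2 higher, against 13.2% and 17.2% of all genes, with a median log2 fold change of -0.25. NDUFAF4, needed for assembly of complex I, fell from 63.7, 55 and 53.1 CPM to 13.4, 18.5 and 19.6 CPM (log2 fold change -1.74, SE 0.17, adjusted p = 6.44e-08), and NDUFAF2, another complex I factor, by -1.09 on the log2 scale. SDHAF4, which protects newly flavinylated SDHA, rose from 1.87, 4.09 and 2.34 CPM to 9.34, 5.37 and 8.14 CPM (log2 fold change 1.45, SE 0.31, adjusted p = 6.03e-04), and ATPAF2, a chaperone of the F1 part of complex V, rose by 0.70. Against 15.4% of all genes lower and 17.2% higher in nuclear RNA, 14 were called lower, led by NDUFAF4 (-1.99) and COA7 (-1.22), and 1 higher, SDHAF4 (1.25).

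Of 12 transcriptional regulators tested in mRNA, 6 were called lower and 0 higher, against 13.2% and 17.2% of all genes, with a median log2 fold change of -0.71. PPARGC1B, a coactivator of mitochondrial genes, fell from 73.6, 63.0 and 99.5 CPM to 15.4, 26.9 and 24.4 CPM (log2 fold change -1.82, SE 0.28, adjusted p = 1.66e-05). MYC fell from 277, 369 and 229 CPM to 83.8, 97.0 and 112 CPM (log2 fold change -1.58, SE 0.29, adjusted p = 1.40e-04). The groups did not overlap for either gene. The remaining 4 were TFB2M, POLRMT and TFAM, which transcribe mitochondrial DNA, and PPRC1, a coactivator. The regulators NRF1 (-0.10, adjusted p = 0.468) and GABPA (0.16, adjusted p = 0.553) did not pass, and YY1 was lower by the adjusted p alone (-0.50, adjusted p = 2.66e-05). In nuclear RNA 6 were also called lower, against 15.4% of all genes, with PPARGC1B at -1.96 and MYC at -1.71.

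At IM 6h 4 of the 12 regulators were called lower in mRNA, against 4.12% of all genes, led by MYC (-1.54, adjusted p = 7.93e-04) and PPARGC1B (-1.42, adjusted p = 9.39e-04), as were the assembly factors NDUFAF4 (-1.07) and COA7 (-0.91). Between IM 6h and IM 18h edgeR and DESeq2 each called 0 of 79 members, against 4.41% of all genes by edgeR, while 26 had an unadjusted p under 0.05 and 9 passed the adjusted p alone, all lower. In the same comparison CYCS (-1.07) and HIGD1A (-0.73) were called lower, as were 2 assembly factors, NDUFAF2 and NDUFAF4. Without IM 6h replicate 3, 5 members were called, and without IM 18h replicate 1, 1 member. The 13 genes of mitochondrial DNA were not called at IM 18h in either fraction, and 12 of their mRNA changes were positive.

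**Figure D4:**
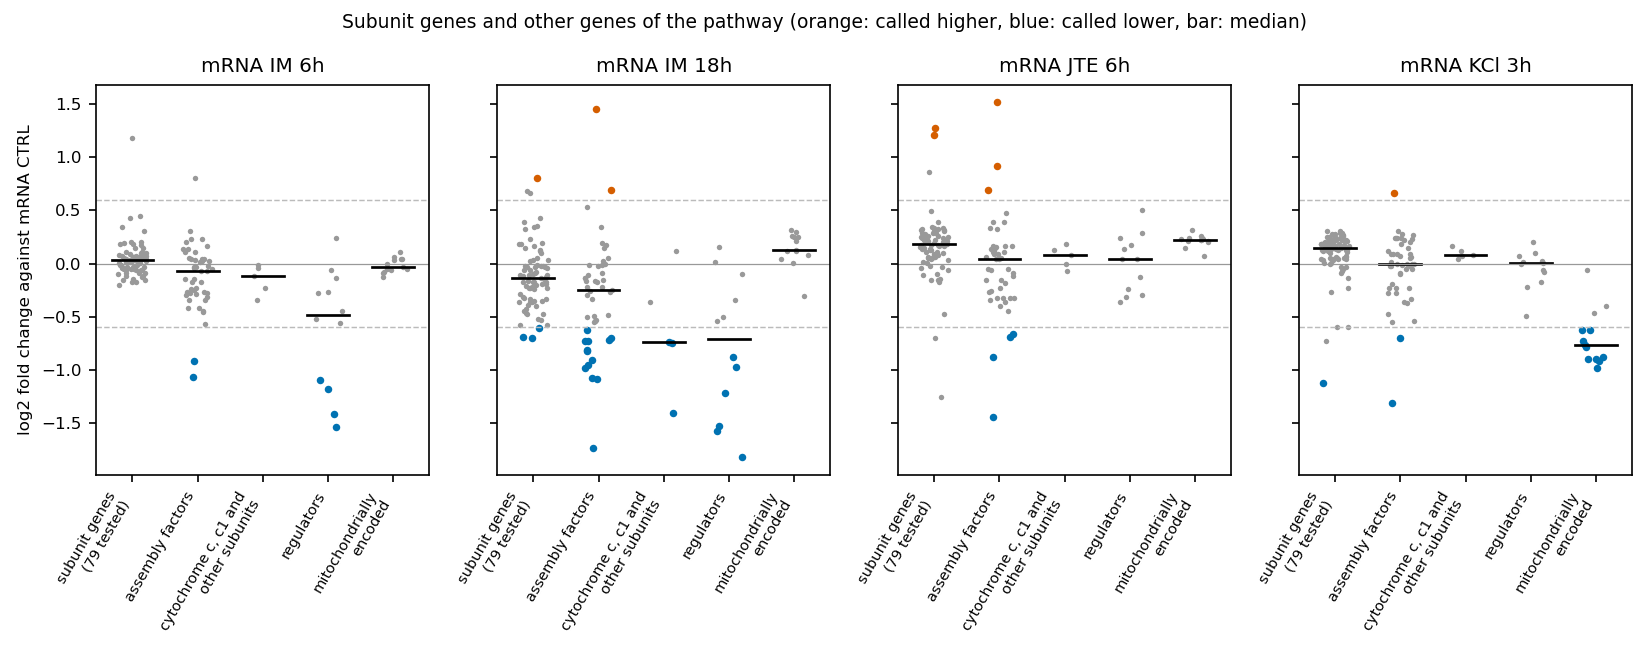
Log2 fold change against mRNA CTRL of the subunit genes, assembly factors, cytochrome c and its group, regulators and the genes of mitochondrial DNA at IM 6h, IM 18h, JTE 6h and KCl 3h. Points are genes (orange, called higher; blue, called lower; grey, not called), bars are medians and dashed lines mark the fold threshold of 0.6, and regulators have a median of -0.71 at IM 18h and the genes of mitochondrial DNA one of -0.77 at KCl 3h.

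Under JTE-607 most changes were small and positive in mRNA at 1 and 6 hours. At JTE 1h edgeR and DESeq2 each called 0 of 79 members, against 0.851% of all genes by edgeR, and 3 had an unadjusted p under 0.05. Of the 79 changes 70 were positive and 9 negative. The median was 0.10, and 0.01 over all genes. All 3 JTE 1h libraries lay above all 3 CTRL libraries for 18 of the 73 members over 10 CPM, beside 3.55% of genes over 10 CPM. Every tested gene of complexes II, III, IV and V had a positive change, and the largest change of complex III was that of UQCRB (0.19, adjusted p = 0.615). In nuclear RNA at the same hour edgeR and DESeq2 each called 0 of 81, against 8.52% of all genes by edgeR, 2 had an unadjusted p under 0.05, and 1 passed the adjusted p alone, NDUFA11 (-0.40). An edgeR test of the nuclear minus the mRNA response called 0 members, as did DESeq2, against 0.0605% of all genes, and 1 had an unadjusted p under 0.05.

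At JTE 6h 2 of 79 members were called, both higher, against 6.73% of all genes higher and 6.47% lower. Among genes above 10 CPM, 1.31% were called higher and 6.59% lower. The median log2 fold change of the members was 0.19, against 0.03 over all genes, with 66 members positive. All 3 JTE 6h libraries lay above the 3 CTRL libraries for 33 of 73 members over 10 CPM, beside 13.2% of genes over 10 CPM. The share of counts was 1.09% ± 0.0749 at JTE 6h (SD, n = 3), and 1.02% ± 0.00389 at JTE 18h. NDUFA9, an accessory subunit at the junction of the matrix and membrane arms, was at 13.1, 12.2 and 10.2 CPM in CTRL and 15.2, 16.1 and 16.4 CPM at JTE 1h. It reached 26.9, 24.4 and 30.5 CPM at JTE 6h (log2 fold change 1.20, SE 0.13, adjusted p = 4.71e-07) and was at 13.9, 14.1 and 16.0 CPM at JTE 18h. The JTE 6h libraries were above those of the other 3 groups. With the replicate block and the exchanged CTRL numbers NDUFA11 was called lower as well (-0.71, adjusted p = 0.00565).

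NDUFA13, known also as GRIM-19, was the other gene called at JTE 6h, at 1.16, 0.681 and 0.836 CPM in CTRL and 2.17, 1.99 and 2.30 CPM at JTE 6h (log2 fold change 1.27, SE 0.33, adjusted p = 0.00746). It rested on few reads, 21, 13 and 15 counts in the CTRL libraries. Without CTRL replicate 2 the change was 1.08 and not called (adjusted p = 0.0535), so that 1 member was called, and 4 members were called without JTE 6h replicate 2. YJEFN3, which shares exon bases with NDUFA13, rose in the same comparison by 2.23 on the log2 scale (adjusted p = 2.50e-06). Its part in the value of NDUFA13 was not tested.

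At JTE 18h 3 of 79 members were called, all lower and all of complex I, against 3.29% of all genes higher and 2.09% lower. NDUFB10, an accessory subunit of the membrane arm, fell from 96.3, 76.8 and 84.2 CPM to 42.6, 46.8 and 43.4 CPM (log2 fold change -0.96, SE 0.16, adjusted p = 3.13e-04). NDUFV2, the core subunit with the iron-sulfur cluster beside NDUFV1, fell from 6.94, 4.09 and 4.79 CPM to 2.28, 2.68 and 2.04 CPM (log2 fold change -1.18, SE 0.24, adjusted p = 0.00231). NDUFA3, a small accessory subunit, fell from 22.2, 22.9 and 22.8 CPM to 14.9, 12.8 and 13.8 CPM (log2 fold change -0.71, SE 0.11, adjusted p = 2.62e-04). None of the 3 overlapped between the groups. TFPT, which shares exon bases with NDUFA3, was at -0.40 (adjusted p = 0.216). NDUFV2 shares 28.4% of its exon bases with another gene and has an intron over the aligner's limit. What part these had was not tested.

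From JTE 6h to JTE 18h 5 of 79 members were called, 1 higher and 4 lower, against 7.76% of all genes higher and 5.68% lower. Among genes above 10 CPM, 6.18% were called higher and 2.15% lower. NDUFV3, an accessory subunit of the NADH-binding module, rose from 63.1, 81.4 and 64.0 CPM to 107, 122 and 117 CPM (log2 fold change 0.74, SE 0.09, adjusted p = 7.17e-06). NDUFV2 (log2 fold change -1.04, SE 0.24, adjusted p = 0.00295), NDUFA9 (log2 fold change -0.89, SE 0.13, adjusted p = 3.52e-05) and NDUFB10 (log2 fold change -0.80, SE 0.16, adjusted p = 6.99e-04) fell, as did NDUFA3 (-0.67). All 5 belong to complex I. With a replicate block NDUFA13 was also called lower (-0.83, adjusted p = 0.041). Assembly factors were called in both directions under JTE: COX16, a complex IV factor, rose at 6 and at 18 hours (1.52 and 1.83), while at 6 hours PET117 (-1.44) and COA3 (-0.88) fell and at 18 hours NDUFAF3 (-0.79) and COX20 (-0.74) fell. COX20 also differed between the fractions at JTE 1h, by 1.58 in nuclear minus mRNA response (adjusted p = 0.0406).

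The 2 drugs at 18 hours gave different levels for 9 of 79 members, 6 higher and 3 lower under imatinib, against 16.7% of all genes higher and 13.6% lower. This comparison holds no CTRL library. UQCR11 was at 13.8, 16.1 and 18.4 CPM at IM 18h and 34.2, 35.5 and 34.2 CPM at JTE 18h (log2 fold change -1.10, SE 0.22, adjusted p = 3.12e-04). NDUFC2 was lower by -1.05 and NDUFA9 by -0.62 on the log2 scale under imatinib. ATP5IF1 (log2 fold change 0.92, SE 0.13, adjusted p = 5.85e-06), NDUFB10 (0.87) and NDUFV2 (0.84) were higher under imatinib. COX7A2L (0.65), NDUFB1 (0.63) and NDUFA3 (0.60) were also called higher, close to the threshold. Calls were lost without IM 18h replicate 2 for NDUFV2 (0.55), without JTE 18h replicate 3 for NDUFA9 (-0.58) and without IM 18h replicate 1 for COX7A2L (0.55). NDUFB1 lost its call without IM 18h replicate 3, JTE 18h replicate 1 or JTE 18h replicate 3 (0.59, 0.59 and 0.58). NDUFA3 lost its call without IM 18h replicate 2 or 3 or JTE 18h replicate 2 or 3 (0.59, 0.53, 0.53 and 0.57). Of 8 other alternative fits, 6 lost NDUFA3, among them DESeq2 and the fit of these 2 groups alone, and 4 lost NDUFB1. The fit with no filter on low counts also lost COX7A2L.

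Few subunit genes were called under salt stress. At KCl 1h in mRNA 1 of 79 members was called, lower, against 2.51% of all genes higher and 2.94% lower. It was NDUFA11, a membrane-arm subunit at the contact with complex III, at 8.16, 5.34 and 6.36 CPM in CTRL and 3.93, 3.31 and 2.72 CPM at KCl 1h (log2 fold change -1.01, SE 0.27, adjusted p = 0.0245). The groups did not overlap, but the call was lost without CTRL replicate 1 or 3 (adjusted p = 0.166 and 0.0514) and without KCl 1h replicate 2 or 3 (adjusted p = 0.0819 and 0.145). With every library thinned to the smallest it was also lost (adjusted p = 0.0653).

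In nuclear RNA 4 of 81 members were called at KCl 1h, all lower and all of complex I, against 15.3% of all genes higher and 8.5% lower. Among genes above 10 CPM, 1.08% were called higher and 2.07% lower. Of the 4 members, NDUFA7 and NDUFA13 lay below that level. NDUFA11 was among the 4, from 23.8, 25.6 and 26.2 CPM to 11.6, 13.2 and 14.02 CPM (log2 fold change -0.96, SE 0.13, adjusted p = 5.96e-06). NDUFV2 fell from 17.3, 19.2 and 19.4 CPM to 8.69, 10.8 and 10.4 CPM (log2 fold change -0.90, SE 0.12, adjusted p = 5.98e-06). NDUFA7, an accessory subunit of the matrix arm, fell from 2.01, 2.55 and 3.02 CPM to 0.800, 1.02 and 1.07 CPM (log2 fold change -1.38, SE 0.26, adjusted p = 2.67e-04). The groups were apart for all 3. RPS28, which with another gene shares 33.5% of the exon bases of NDUFA7, had a log2 fold change of -0.00. NDUFA11 shares 12.1% of its exon bases with other genes, and 1 of these was at -1.38 (adjusted p = 0.0815). NDUFV2 shares 28.4% and NDUFA13 20.97% of exon bases with other genes. What part these overlaps had was not tested. NDUFA13 was the fourth (log2 fold change -0.67, SE 0.23, adjusted p = 0.031), and it was not called without nuclear CTRL replicate 3 (adjusted p = 0.205), nuclear KCl 1h replicate 1 (adjusted p = 0.155) or nuclear KCl 1h replicate 2 (adjusted p = 0.068). For the nuclear minus the mRNA response edgeR and DESeq2 each called 0 members, against 0.668% of all genes by edgeR, and 1 had an unadjusted p under 0.05. With the replicate block and the exchanged CTRL numbers 1 member was called, NDUFV2, lower in nuclear RNA relative to mRNA (-0.98, adjusted p = 6.78e-05).

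At KCl 3h in mRNA 1 of 79 members was called, lower, against 4.55% of all genes higher and 7.33% lower. NDUFA13 rested on 10, 8 and 7 counts in the KCl 3h libraries (log2 fold change -1.13, SE 0.39, adjusted p = 0.0489). It lost its call in 9 alternative fits, 5 of which left out 1 library: without CTRL replicate 1 or 3 (adjusted p = 0.216 and 0.0777), or KCl 3h replicate 1, 2 or 3 (adjusted p = 0.0635, 0.126 and 0.144). The count was 2 members without CTRL replicate 2, and also with the replicate block and the exchanged CTRL numbers, which added NDUFA11 (-0.74, adjusted p = 0.00461). YJEFN3 was at -1.77 in the same comparison (adjusted p = 4.06e-04).

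The subunits encoded by mitochondrial DNA fell at KCl 3h. The median log2 fold change of the 79 nuclear-encoded genes was 0.15, against 0.02 over all genes, with 66 positive, and all 18 tested genes of complex V were positive. All 3 KCl 3h libraries lay above the CTRL libraries for 24 of 73 members over 10 CPM, beside 14.5% of genes over 10 CPM. Meanwhile 10 of the 13 genes of mitochondrial DNA were called lower, against 7.33% of all genes, with a median of -0.77. MT-CO3, a core subunit of complex IV, fell from 11709, 10921 and 11287 CPM to 4727, 6892 and 5495 CPM (log2 fold change -0.99, SE 0.11, adjusted p = 1.10e-06), and MT-ATP6, the proton channel subunit of complex V, by -0.92 on the log2 scale. At KCl 1h 1 of the 13 was called lower, MT-ND3 (-0.63). Among assembly factors SURF1, for complex IV, rose (0.66), and COX20 (-1.31) and COX19 (-0.70) fell at KCl 3h.

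COX4I2 gained reads under KCl. It had no count in the 6 CTRL libraries of both fractions. At KCl 1h it had 2, 17 and 24 counts in mRNA and 8, 12 and 23 counts in nuclear RNA, 43 in total in each. Against a floor of 3 counts over the CTRL group, its mean CPM was at least 5.8-fold higher in mRNA and at least 15.1-fold higher in nuclear RNA. The 3 mRNA libraries were at 0.104, 0.285 and 0.558 CPM, the lowest resting on 2 counts. At KCl 3h it had 1, 2 and 1 counts. The gene was below the filter on low counts, and with no filter it was called at KCl 1h in mRNA (adjusted p = 0.00168) and in nuclear RNA (adjusted p = 6.47e-09). Per kilobase it was at 0.455 ± 0.330 CPM in mRNA at KCl 1h, and COX4I1 at 61.3 ± 1.23 (SD, n = 3).

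**Figure D5:**
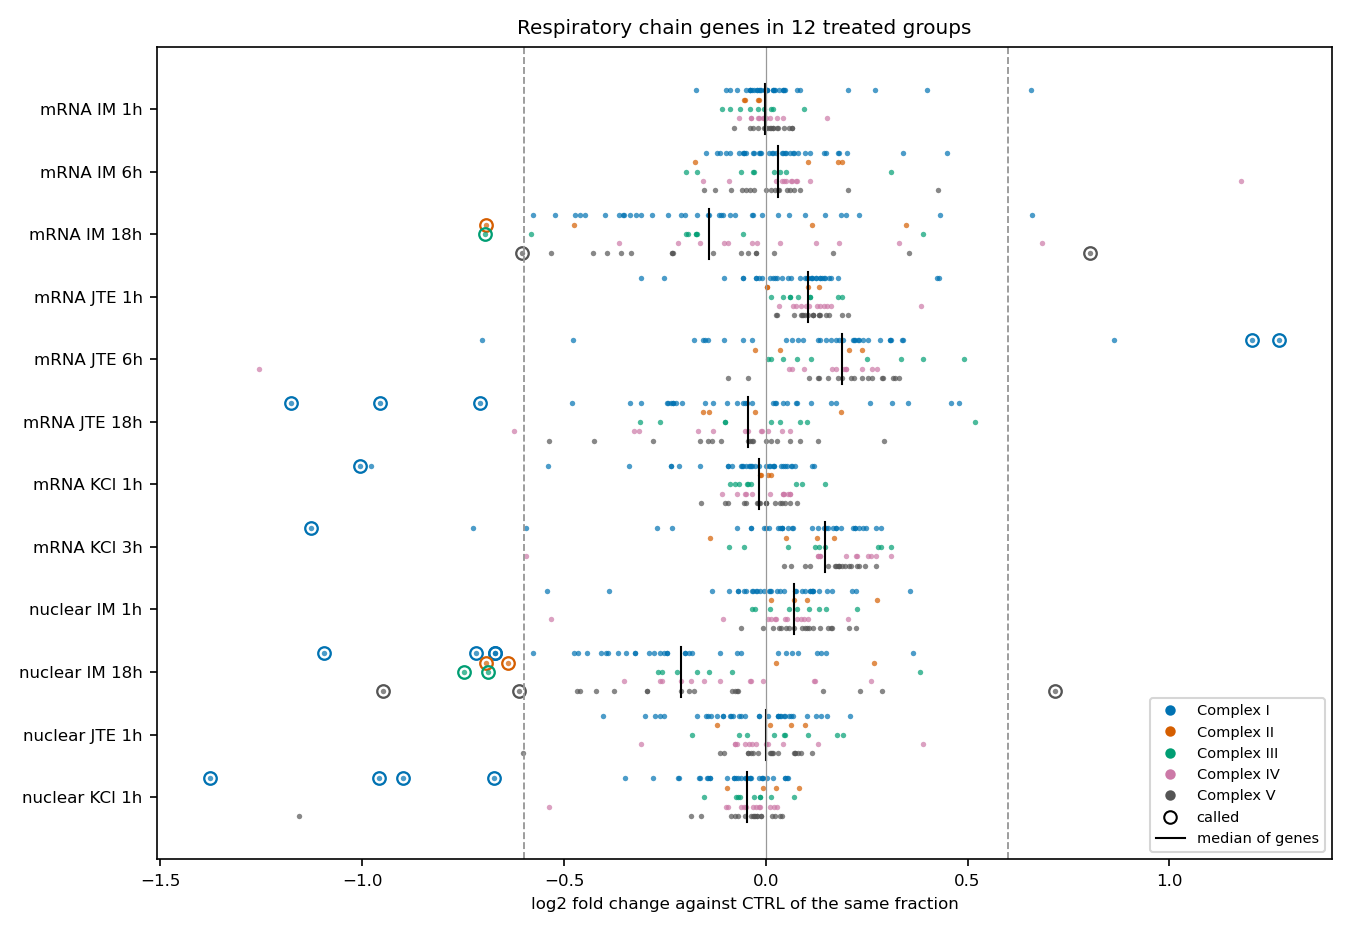
Log2 fold change of every tested gene against the CTRL libraries of its fraction, for each of 12 treated groups. Points are genes coloured by complex, black bars are medians of all genes shown in the row, rings mark called genes and dashed lines the fold threshold of 0.6 in each direction, and IM 18h in both fractions has its medians below 0 while JTE 6h and KCl 3h have theirs above 0.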

How the data were processed

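K562 mRNA was profiled in 27 libraries of 9 groups and nuclear RNA in 15 libraries of 5 groups, 3 per group. Per the labels and the study's methods, the authors aligned reads to GRCh38 (GRCh38.p14 in the submitters' processing notes) with STAR, allowing introns of up to 10000 bases, removed duplicates without molecular identifiers, and counted uniquely assigned reads per gene with featureCounts without strand. The deposited values are raw counts per gene with exon lengths. Reads on overlapping genes were dropped, 12 of the 85 genes have an intron over that limit and 48 have named pseudogenes, so their counts are less certain.

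Members were matched by symbol and by GENCODE 44 biotype, in which 57532 of 58243 gene identifiers were found; the pattern also matches 117 pseudogenes among 203 genes. The members and gene lists were chosen with earlier results of these data known, and 1 gene of each list of cell type markers is not reported here. Genes were tested with edgeR 4.0.16 (R 4.3.3; filterByExpr, TMM, robust quasi-likelihood fit of all groups of a fraction, Benjamini-Hochberg over 18095 mRNA or 21929 nuclear genes) and called where the adjusted p was below 0.05 with a change over 0.6 on the log2 scale. Levels are TMM-scaled CPM, divided by the exon length in kilobases where genes are compared. Intervals and floors of 3 counts cover counting error only. Statistics were given for up to 3 called members with the largest rise and up to 3 with the largest fall per comparison, for preset subunits of each complex and tissue-restricted isoforms, for the highest and lowest gene of each complex, and for up to 2 rises and 2 falls per pathway list; other members were named after their values were seen.

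Replicates differed by more than sampling noise (chi-square per degree of freedom 8.11 to 44.6). Deviations from the group means correlated by replicate number between the nuclear groups and nuclear CTRL (r 0.235 to 0.891) and between JTE 18h and JTE 6h in mRNA (0.112 to 0.322), and, with the labelled numbers, not in all pairs of the other mRNA groups. The published list of read numbers gives the totals of mRNA CTRL replicates 1 and 2 the other way round; with these exchanged, 7 of the 8 treated mRNA groups correlated with CTRL over 0.1 in every pair (r 0.121 to 0.877) and JTE 18h did not (0.0553 to 0.243). The block was therefore also fitted with the exchange, an alternative chosen after seeing the data. The labels call the replicates biological, and the paper states that treatments were repeated in separate experiments. Its splicing tests compared replicates of equal number. Neither source states that equal numbers share a culture. The main edgeR fit had no replicate block, so its p-values measure the spread between these libraries, including any differences between experiments. Alternatives were DESeq2 1.42.0, RLE normalization, no filter on low counts, a replicate block, 2 groups alone, thinning to the smallest library, leaving out genes over 1% of the counts, no fold threshold and leaving out each library in turn. The same kind of fit was also run on simulated counts, with changes beyond the fold threshold in some genes. These counts were drawn without a replicate effect, so that run does not cover differences between experiments or smaller changes.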

Additional observations from a re-analysis of the deposited data

Results flagged for a closer look

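The levels of 5 complex I genes differed between 6 and 18 hours of JTE-607 by edgeR's test of the difference itself, in mRNA with 3 libraries a group. No untreated group is labelled with these times, so drug response and hours in culture cannot be told apart. The log2 fold changes of JTE 18h against JTE 6h were -0.674 for NDUFA3, -0.893 for NDUFA9, -0.8 for NDUFB10, -1.04 for NDUFV2 and 0.735 for NDUFV3. All 3 libraries of 1 time lay to the same side of all 3 of the other for each of these genes. NDUFA9 stood above CTRL at 6 hours, whereas NDUFA3, NDUFB10 and NDUFV2 stood below CTRL at 18 hours. NDUFV3 was lower than CTRL at 6 hours by the adjusted p alone in edgeR's test (log2 fold change -0.48, adjusted p = 4.81e-04). Groups of 3 libraries were not tested for single libraries that stand apart.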

How the results depend on the processing

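No called gene changed direction under any alternative, and of the values of called genes 481 kept their call and 64 lost it. Without the fold threshold more genes passed: 3 at IM 6h, 28 at IM 18h, 14 at JTE 6h, 9 at JTE 18h, 6 at KCl 3h, 9 between IM 18h and IM 6h, 26 between JTE 18h and JTE 6h, 35 between IM 18h and JTE 18h, and 33 at IM 18h and 1 at JTE 1h in nuclear RNA. With no filter on low counts 8 were called at IM 18h, 2 at KCl 1h and 1 between IM 18h and IM 6h. That fit also added NDUFA11 at JTE 6h and COX4I2 at KCl 1h in nuclear RNA. Between IM 18h and JTE 18h it added SDHB and COX6B2 and lost COX7A2L, NDUFB1 and NDUFA3. At KCl 3h it called NDUFA11 and not NDUFA13. The replicate block gave 1 at IM 6h and 3 at KCl 3h in mRNA by the labelled numbers. With the numbers of mRNA CTRL 1 and 2 exchanged, which was chosen after seeing the data, the block gave 1 at IM 6h, 2 at KCl 3h and 1, NDUFV2, for the nuclear minus mRNA response to KCl 1h. Both blocks took ATP5MC1 under the fold threshold at IM 18h, added COX6B2 at IM 6h and between IM 18h and JTE 18h, NDUFA11 at JTE 6h and KCl 3h and NDUFA13 between JTE 18h and JTE 6h, and the block by labelled numbers also added NDUFV2 at KCl 3h (-0.61). The block changed no other call. DESeq2 called 0 at KCl 3h. The fit of 2 groups alone called 0 at KCl 1h and 0 at KCl 3h, and thinning to the smallest library called 0 at KCl 1h.

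Leaving out each library in turn gave 3 to 7 calls at IM 18h (7 without IM 18h replicate 2), 1 to 4 at JTE 6h, 0 to 1 at KCl 1h, 0 to 2 at KCl 3h, 0 to 5 between IM 18h and IM 6h, and 7 to 12 at IM 18h in nuclear RNA. Ranking by CPM without length named the same highest gene in 2 of 5 complexes. The rankings differ only in the division by exon length. Without it NDUFA5 was highest in complex I, SDHA in complex II and COX4I1 in complex IV. NDUFA13 and the tissue-restricted isoforms are limited by depth.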
